A study of Mus musculus with 16 samples.

Results

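9 genes that mark successive steps of red cell formation were followed through 16 RNA-seq libraries of mouse spleen: *Klf1*, *Gata1*, *Tfrc*, *Alas2*, *Slc4a1*, *Epb42*, *Ermap*, *Hba-a1* and *Hbb-bs*. They were taken by symbol from the count table, each had 1 identifier there, and they are 9 of its 54838 gene identifiers. All 9 were among the 14510 genes that had enough counts to be tested. In GENCODE M21 (GRCm38) all 9 are protein coding. *Klf1* spans chr8:84901928-84905291 (plus strand), *Gata1* chrX:7959260-7978071 (minus), *Tfrc* chr16:32608920-32632794 (plus), *Alas2* chrX:150547375-150570638 (plus) and *Slc4a1* chr11:102348824-102366203 (minus). *Epb42* spans chr2:121017891-121037072 (minus), *Ermap* chr4:119175457-119190011 (minus), *Hba-a1* chr11:32283511-32284465 (plus) and *Hbb-bs* chr7:103826534-103828096 (minus).

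Red cells are made from progenitors that turn on a fixed programme as they mature. GATA1 and KLF1 are the transcription factors that drive it, and both bind regulatory DNA of many red cell genes. The transferrin receptor TFRC brings in iron, ALAS2 catalyses the first step of heme synthesis, and heme with its iron is loaded into the alpha and beta globin chains. Band 3 (*Slc4a1*) and protein 4.2 (*Epb42*) tie the membrane to its skeleton late in maturation, and *Ermap* encodes an erythroid membrane-associated protein. The mouse spleen keeps some red cell production in adult life and can expand it strongly under stress.

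The mice were of the C57BL/6 strain with no genotype or treatment given in the labels, and their ages are not given there either. Size-selected samples are the cells that remained on a strainer after spleens had been minced, dissociated with Dispase II, and cleared of red blood cells by lysis. The labels call their source spleen glia, the cells that ensheath nerves, and the design text sets them against whole spleen. The labels attach the same preparation, lysis step included, to the whole spleen samples, so whether those were lysed is not known from them. Each group had 8 samples that carry the same 8 numbers, of which 407, 408, 427 and 435 are male and 436, 445, 447 and 460 are female. The labels do not say that samples of 1 number come from 1 animal, and p-values below measure the spread between these samples. In bulk RNA, fewer cells of a type and less RNA per cell cannot be told apart.

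Promoters are shown as background. They were not tested as a reason why 8 of the genes varied together across spleens, as described further on. The RefSeq promoter table (GRCm38.p6) had entries for 8 of the 9 genes, all but *Slc4a1*, and 5 windows are printed, each of the 250 bases before the RefSeq start, 5′ to 3′ on the gene's own strand. Capitals mark GATA motifs (TGATAA, with A allowed as its first letter and G as its last, the letters GATA factors bind) and CACCC motifs (CCACACCC, CCACGCCC, CCCCACCC or CCCCGCCC, the letters KLF factors bind), searched on both strands.
The window of *Klf1* is chr8:84901732-84901981 on the plus strand, *Gata1* chrX:7967911-7968160 on the minus strand, *Alas2* chrX:150547167-150547416 on the plus strand, *Hba-a1* chr11:32283422-32283671 on the plus strand and *Hbb-bs* chr7:103827929-103828178 on the minus strand.
Klf1: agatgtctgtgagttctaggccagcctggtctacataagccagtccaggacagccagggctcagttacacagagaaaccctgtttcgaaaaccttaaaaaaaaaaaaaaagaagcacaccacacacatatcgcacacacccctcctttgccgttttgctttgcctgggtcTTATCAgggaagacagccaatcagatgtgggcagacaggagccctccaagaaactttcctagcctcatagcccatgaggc
Gata1: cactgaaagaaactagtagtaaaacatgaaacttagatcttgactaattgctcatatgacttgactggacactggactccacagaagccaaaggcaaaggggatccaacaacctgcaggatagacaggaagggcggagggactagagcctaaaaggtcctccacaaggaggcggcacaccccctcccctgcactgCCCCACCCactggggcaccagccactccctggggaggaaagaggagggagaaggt
Alas2: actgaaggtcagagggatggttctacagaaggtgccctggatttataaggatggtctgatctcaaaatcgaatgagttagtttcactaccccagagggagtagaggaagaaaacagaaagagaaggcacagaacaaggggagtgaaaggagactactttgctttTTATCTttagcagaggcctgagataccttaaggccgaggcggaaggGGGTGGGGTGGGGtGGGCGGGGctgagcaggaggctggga
Hba-a1: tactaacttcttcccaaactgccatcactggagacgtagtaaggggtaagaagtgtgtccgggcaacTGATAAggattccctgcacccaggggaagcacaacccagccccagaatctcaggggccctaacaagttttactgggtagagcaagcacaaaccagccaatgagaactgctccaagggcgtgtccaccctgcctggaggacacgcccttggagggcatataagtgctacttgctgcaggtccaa
Hbb-bs: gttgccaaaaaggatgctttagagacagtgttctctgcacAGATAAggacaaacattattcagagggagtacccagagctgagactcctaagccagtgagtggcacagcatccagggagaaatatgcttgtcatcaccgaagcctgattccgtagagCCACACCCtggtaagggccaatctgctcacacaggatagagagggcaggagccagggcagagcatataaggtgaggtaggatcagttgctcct
The 8 genes with an entry have 9 windows, since *Tfrc* has 2. A GATA motif was present in 6 of the 9 windows, each of a different gene, against 26.5% of 32851 RefSeq windows of the same length. In *Klf1* it lies on the opposite strand, 80 to 75 bases before the start, in *Alas2* on the opposite strand at 86 to 81, in *Hba-a1* on the same strand at 183 to 178 and in *Hbb-bs* on the same strand at 210 to 205. *Ermap* (67 to 62 bases before the start) and *Epb42* (226 to 221), which are not printed, also held one. The windows of *Gata1* and *Tfrc* held none. A CACCC motif was present in 4 of the 9 windows, against 27.4% of all windows: *Gata1*, *Tfrc* (1 of its 2), *Alas2*, where 2 of 3 matches overlap, and *Hbb-bs*, at 93 to 86 bases before the start. These matches are descriptions of sequence, not of bound sites.

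Library totals ran from 13119992 to 19944440 estimated counts in the size-selected samples and from 12153770 to 16282454 in whole spleen. As to the spleen label, B cell markers summed to between 5309 and 6560 CPM (counts scaled to a common library total) in whole spleen and to between 962 and 3399 CPM in the size-selected samples. Of 8 glia markers, 7 passed the count filter, and *Sox10* did not. Each of the 7 was higher after size selection, and 6 were with the sample number as a block in the fit. Of all tested genes, 37.5% were higher (38.1% with the block). Summed glia markers were 1.87 to 6.04 CPM in whole spleen and 68.5 to 481 CPM in the size-selected samples. Markers this low in whole spleen pass the filter mainly through the size-selected samples. Their 7 of 7 therefore cannot be weighed against the share of all tested genes, and only the summed levels describe the difference. The size-selected columns have a feature that the whole spleen columns lack: the deposited estimated counts of 3898 genes are, in each of the 8, products of a 2-decimal value and fixed constants below 1. *Tfrc* and *Alas2* carry a constant of 0.659 to 0.789 depending on the column, *Slc4a1* a constant of 0.770 to 0.858, and *Hba-a1* and *Hbb-bs* constants whose product is 0.585 to 0.756. *Klf1*, *Gata1*, *Epb42* and *Ermap* carry none. No label mentions the constants, so fold changes are also given on counts divided by them, called restored counts.

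*Klf1* and both globin genes were lower in the size-selected samples in edgeR's quasi-likelihood test, at an adjusted p under 0.05. That is 3 of the 9 genes lower and 0 higher, beside 30.4% of all tested genes called lower, 37.5% called higher and 67.9% called in either direction in the same comparison, so the share called lower is close to that of the table as a whole. The 9 log2 fold changes (size-selected over whole spleen) were all below 0, with a median of -1.17 beside 0.05 over all genes tested. With the sample number as a block, 7 of the 9 genes were lower, all but *Gata1* and *Tfrc*, beside 31.3% of all tested genes lower, 38.1% higher and 69.4% in either direction. On restored counts 2 were lower without the block (*Klf1* and *Hba-a1*), beside 30.4% lower and 68.0% in either direction, and 7 with it, beside 31.3% and 69.4%. No gene of the 9 separated the groups completely, whereas 11.6% of all tested genes had all 8 size-selected samples below all 8 whole spleen samples.

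**Figure D1:**
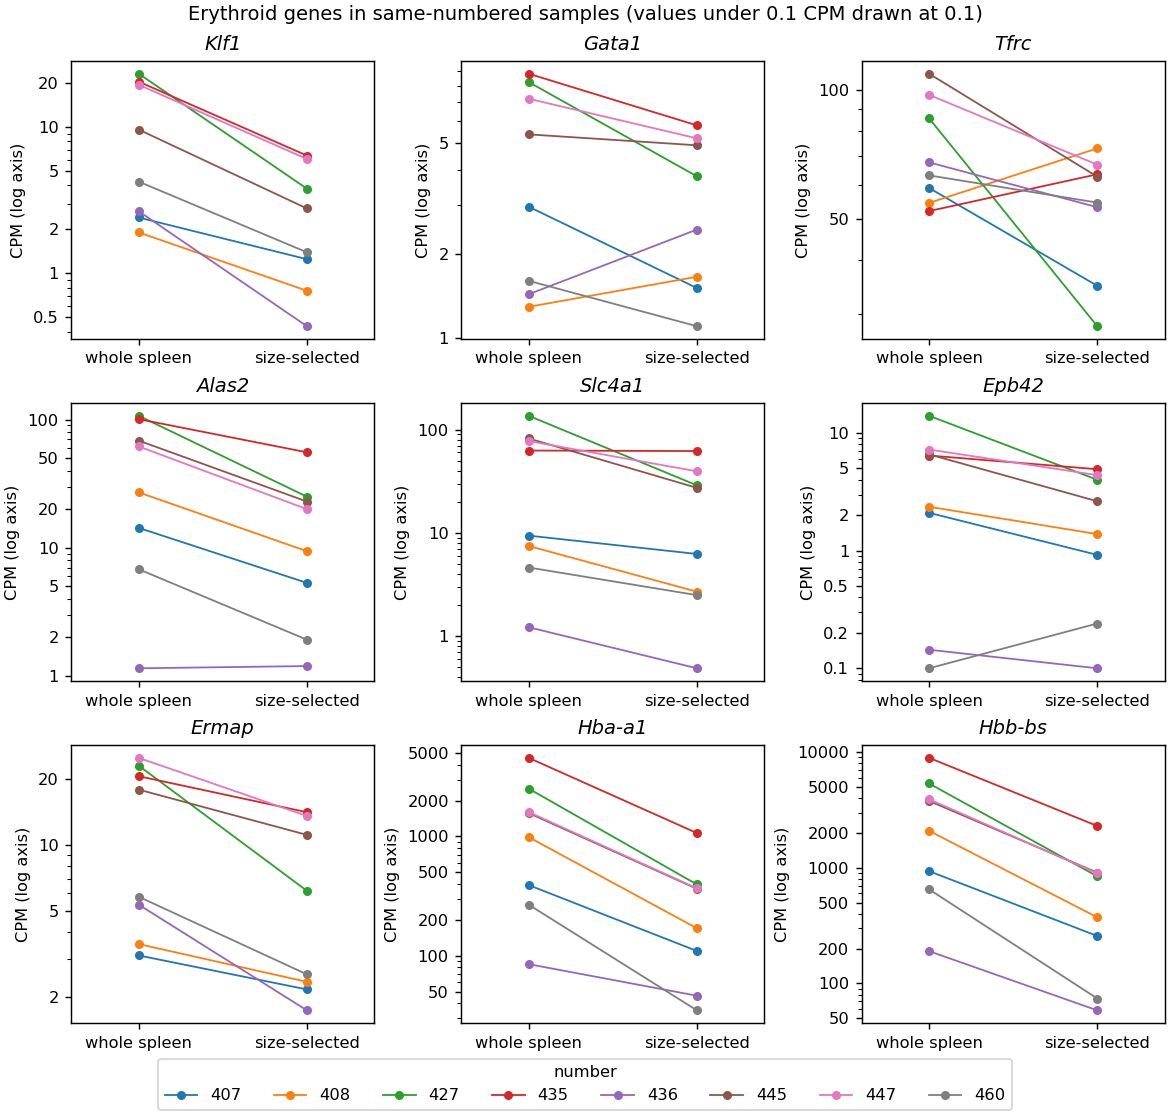
Level of each gene in CPM (vertical log axis) in whole spleen and after size selection; each line joins 1 number and each colour is 1 number. Counts are as deposited. *Klf1*, *Slc4a1*, *Ermap*, *Hba-a1* and *Hbb-bs* fall along all 8 lines, and *Tfrc* lines cross. Numbers 436 and 460 lie at the bottom for *Alas2*, *Slc4a1*, *Epb42* and the globin genes.

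*Klf1* encodes the erythroid Krüppel-like factor that activates the adult beta globin gene. Its level in whole spleen ran from 1.91 CPM in number 408 through a median of 6.93 to 23.2 in number 427. In the size-selected samples it ran from 0.44 in number 436 through 2.09 to 6.39 in number 435, so the ranges overlapped although each number was lower on its own. The log2 fold change was -1.88 (SE 0.61, edgeR adjusted p = 0.0114). Within numbers the log2 difference averaged -1.69 ± 0.55 (SD, n = 8), from -2.57 in number 427 to -0.88 in number 407. The fold change was -1.78 with the block and -1.93 on restored counts, where *Klf1* carries no constant. Counts were low, with a median of 33.5 per size-selected sample.

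*Gata1*, on the X chromosome, encodes the master factor of the red cell lineage, which is also used by megakaryocytes, mast cells, basophils and eosinophils. It ran from 1.30 CPM (number 408) through 4.16 to 8.83 (number 435) in whole spleen, and from 1.11 (number 460) through 3.12 to 5.77 (number 435) in the size-selected samples. The ranges overlapped, with whole spleen of 427, 435 and 447 above every size-selected sample. The size-selected sample was the lower one in 6 of 8 numbers and the higher one in 408 and 436. The fold change of -0.49 (SE 0.45) did not pass edgeR's test, with an adjusted p = 0.351, and neither did that of -0.36 with the block (SE 0.24, adjusted p = 0.191). All 9 megakaryocyte and platelet markers of the list were higher in the size-selected samples, with a median log2 fold change of 1.99, beside 37.5% of all tested genes called higher. *Itga2b*, the platelet integrin, had 2.48 and *Pf4*, a platelet chemokine, 1.39. Summed megakaryocyte markers were 58.8 to 216 CPM in whole spleen and 118 to 836 CPM in the size-selected samples. Mast cell, basophil and eosinophil markers moved the other way: all 5 of 8 that passed the filter were lower, beside 30.4% of all tested genes, with sums of 70.6 to 128 CPM in whole spleen and 35.0 to 69.3 in the size-selected samples. On restored counts 4 of the 5 were lower, and *Cpa3* (-0.99, edgeR adjusted p = 0.0545), named after its values were seen, was not. *Ms4a2*, *Fcer1a* and *Epx* of that list did not pass the filter. The part of these cells in the *Gata1* level was not tested.

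The 2 transcription factors differed from each other. Per number, the fall of *Klf1* exceeded that of *Gata1* by 1.36 ± 0.84 on the log2 scale (SD, n = 8), in 7 of 8 numbers, with an exact sign-flip permutation p = 0.0156 and 0.0296 after Benjamini-Hochberg adjustment over the 36 pairs of genes. Of the 13 erythroid transcription factors listed, 8 were lower and 2 were higher in the main comparison, beside 30.4% and 37.5% of all tested genes, with a median log2 fold change of -0.58. *Gfi1b*, a repressor needed for red cell and platelet formation, was -1.72 (adjusted p = 0.0014) and *Bcl11a*, the repressor of embryonic globins that B cells also express, was -1.16. *Lmo2* (0.36) and *Gata2* (3.02), a factor of early progenitors that endothelial cells share, were the 2 that rose. With the block 8 were lower and 4 higher, beside 31.3% and 38.1% of all tested genes. The further 2, named after their values were seen, were *Tal1* (1.06, edgeR adjusted p = 0.0332) and *Sox6* (1.20, adjusted p = 0.0288). Stroma and vessel markers were all higher in the size-selected samples, 8 of 8, beside 37.5% of all tested genes, with sums of 70.5 to 181 CPM in whole spleen and 1334 to 5238 in the size-selected samples. Their part in the *Gata2* level was not tested.

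*Tfrc* varied least between spleens of the 9 genes, and like *Gata1* it did not pass the test between fractions with all 8 numbers, with or without the block. It ran from 52.1 CPM (number 435) through 65.4 to 109 (number 445) in whole spleen and from 28.1 (number 427) through 58.6 to 73.0 (number 408) in the size-selected samples. Ranges overlapped widely, with 6 numbers lower and 408 and 435 higher. The log2 fold change was -0.43 (SE 0.20) and missed the threshold, with an edgeR adjusted p = 0.06. It passed without number 408 (-0.56, adjusted p = 0.0244), without number 435 (-0.53, 0.0355), with RLE scaling (-0.44, 0.0437) and with no count filter (-0.49, 0.0389), and in the blocked fit without 408 (-0.57, 0.016) or without 435 (-0.55, 0.0216). On restored counts it was -0.02 (SE 0.21, edgeR adjusted p = 0.931), so the deposited difference is about the size of the constant that *Tfrc* carries. Dividing cells of many lineages use the receptor. All 8 cell cycle genes were lower in the size-selected samples, beside 30.4% of all tested genes (median -0.95, with sums of 93.4 to 254 CPM in whole spleen and 58.8 to 128 in the size-selected samples), and 7 of 9 markers of red pulp and island macrophages were higher, beside 37.5% of all tested genes (median 1.29, with sums of 1576 to 3363 CPM in whole spleen and 3520 to 8277 in the size-selected samples). Neither was tested as a source of the *Tfrc* level.

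Of 10 genes for iron uptake and storage, *Tfrc* included, 1 was lower and 4 were higher, beside 30.4% and 37.5% of all tested genes. *Fth1*, the ferritin heavy chain that stores iron, was the lower one at -0.45, and *Slc11a2* (0.97), an iron transporter, *Hfe* (1.31), a partner of the transferrin receptor, and *Aco1* (1.38), an iron-sensing regulator, were among the higher. With the block 2 were lower and 4 higher, beside 31.3% and 38.1%. The list's median was 0.11, near the 0.05 of all genes tested.

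*Alas2*, also on the X chromosome, encodes the erythroid form of the first enzyme of heme synthesis. Whole spleen levels spanned from 1.15 CPM in number 436 through 44.4 to 107 in number 427, a ratio of 93.1. Size-selected levels spanned from 1.20 in number 436 through 14.7 to 55.6 in number 435. All numbers were lower in the size-selected sample but 436, which had 16 counts in whole spleen and a log2 difference of 0.05. At -1.45 on the log2 scale (SE 0.75) it did not pass edgeR's test, with an adjusted p = 0.0946. The same -1.45 passed with the block, where its SE was 0.17 (adjusted p = 1.08e-05). Restored counts gave -1.05 with the block (adjusted p = 0.000167).

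Among the 12 heme synthesis genes, 2 were lower and 2 higher, beside 30.4% and 37.5% of all tested genes, with a median of -0.06. With the block, 5 were lower and 2 higher, beside 31.3% and 38.1%. On restored counts 2 were lower and 1 higher without the block, and 5 and 1 with it, so 1 of the 2 rises was no longer called. *Slc25a37*, the mitoferrin that brings iron into mitochondria (-0.82, edgeR adjusted p = 0.0106), and *Cpox*, a late enzyme of the pathway (-0.59), were the lower 2. *Alas1*, the form of the first enzyme that all cells use, rose by 2.35 and *Uros* by 0.43. So the 2 forms of the first enzyme had fold changes of opposite sign, of which only the rise of *Alas1* passed without the block.

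*Slc4a1*, the anion exchanger band 3, had the widest range among the 8 genes with counts in every sample. It ran from 1.22 CPM in number 436 through 36.0 to 136 in number 427 in whole spleen, a ratio of 111, and from 0.49 in number 436 through 16.8 to 61.9 in number 435 in the size-selected samples, a ratio of 126. As deposited, all 8 numbers were lower, by 2.23 on the log2 scale in number 427 but by 0.02 in number 435. The size-selected count of *Slc4a1* in number 435 carries a constant of 0.814, so the sign of that difference is not secure. The fold change was -1.17 (SE 0.87, edgeR adjusted p = 0.24), and with the block -1.12 (SE 0.22, adjusted p = 0.000565). On restored counts the block gave -0.87 (adjusted p = 0.00331).

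*Epb42*, protein 4.2 of the membrane skeleton, had the lowest median level per kilobase of the 9 genes. It had 0 counts in the size-selected sample of number 436, which allows up to 0.163 CPM, and 0 in whole spleen of number 460, which allows up to 0.193 CPM. The median was 4.40 CPM in whole spleen and 2.01 CPM in the size-selected samples, with highest values of 14.0 (number 427) and 4.93 (number 435). The fold change of -1.08 (SE 0.81, edgeR adjusted p = 0.249) became -0.91 with the block (SE 0.37, adjusted p = 0.0419). With 1 number left out, the blocked fit called it only without 435 or without 460, and the adjusted p was 0.051 to 0.133 in the other 6 cases.

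*Ermap* was lower in 8 of 8 numbers, with log2 differences from -1.88 in number 427 to -0.49 in number 407. Whole spleen had 3.11 CPM (number 407) to 25.1 (number 447) with a median of 11.9, and the size-selected samples 1.74 (number 436) to 14.1 (number 435) with a median of 4.35. Whole spleen values formed 2 clusters of 4, at 5.78 CPM or below in 407, 408, 436 and 460 and at 17.9 or above in 427, 435, 445 and 447. The fold change was -0.96 (SE 0.54, edgeR adjusted p = 0.124) and with the block -0.99 (SE 0.19, adjusted p = 0.000426). Restored counts gave -1.04 with the block.

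In the list of 19 membrane and skeleton genes, 1 was lower and 2 were higher without the block, and 8 were lower and 3 higher with it (all tested genes: 30.4% lower and 37.5% higher, and 31.3% and 38.1% with the block), around a median of -0.95 without it. *Ank1*, the ankyrin that links band 3 to spectrin, was -1.77 (edgeR adjusted p = 0.0271). *Dmtn* (1.85), which bundles actin, and *Aqp1* (1.96), a water channel also made by vessel cells, rose.

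*Hba-a1* and *Hbb-bs* encode adult alpha and beta globin. *Hba-a1* ran from 84.8 CPM in number 436 through 1279 to 4564 in number 435 in whole spleen, and from 34.7 in number 460 through 267 to 1067 in number 435 in the size-selected samples. *Hbb-bs* ran from 190 through 2936 to 8929 in whole spleen and from 58.4 through 608 to 2300 in the size-selected samples, lowest in number 436 and highest in 435 in both. Each of the 8 numbers was lower in the size-selected sample for both genes, yet the spleen poorest in globin had less in whole spleen than the richest had after size selection.

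In edgeR, *Hba-a1* had a fold change of -2.23 on the log2 scale (SE 0.74, adjusted p = 0.0121) and *Hbb-bs* of -2.18 (SE 0.74, adjusted p = 0.0143). With the block they were -2.16 (SE 0.19) and -2.25 (SE 0.15). Restored counts gave -1.69 (adjusted p = 0.0473) for *Hba-a1*, and -1.64 (adjusted p = 0.0554) for *Hbb-bs*, which was then no longer called. With the block, restored counts gave -1.63 and -1.72, and both passed. The 4 adult globin genes together took 0.0457 to 2.19% of counts in whole spleen (median 0.725%) and 0.0219 to 0.760% in the size-selected samples (median 0.177%).

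Both genes have a near-identical neighbour, so their reads could be split in either direction and single-gene values are uncertain. The coding sequences of *Hba-a1* and *Hba-a2* are 429 bases and differ at 1, and those of *Hbb-bs* and *Hbb-bt* are 444 bases and differ at 1. *Hba-a1* made up 33.3 to 37.3% of the alpha pair in whole spleen (median 36.4%) and 26.6 to 34.8% in the size-selected samples (median 29.7%) as deposited. On restored counts its share there was 32.5 to 42.4% (median 36.4%), the same median as in whole spleen. *Hbb-bs* made up 73.9 to 82.2% of the beta pair in whole spleen, 66.3 to 74.8% in the size-selected samples as deposited and 74.6 to 80.3% after restoring. *Hba-a2* (-1.75, adjusted p = 0.0409) and *Hbb-bt* (-1.77, adjusted p = 0.0484) were also lower in edgeR's test. On restored counts *Hba-a2* still passed (-1.68, adjusted p = 0.0491), *Hbb-bt* did not (-1.69, adjusted p = 0.0579), and with the block both passed. The embryonic and minor genes *Hba-x*, *Hbb-y*, *Hbb-bh1*, *Hbb-bh2* and *Hbq1a* did not pass the count filter. The ratio of beta to alpha counts, over both copies of each, was 0.910 to 1.23 in whole spleen and 0.590 to 1.09 (median 0.902) in the size-selected samples as deposited. On restored counts it was 0.669 to 1.22 there, with a median of 1.03 beside 1.05 in whole spleen.

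**Figure D2:**
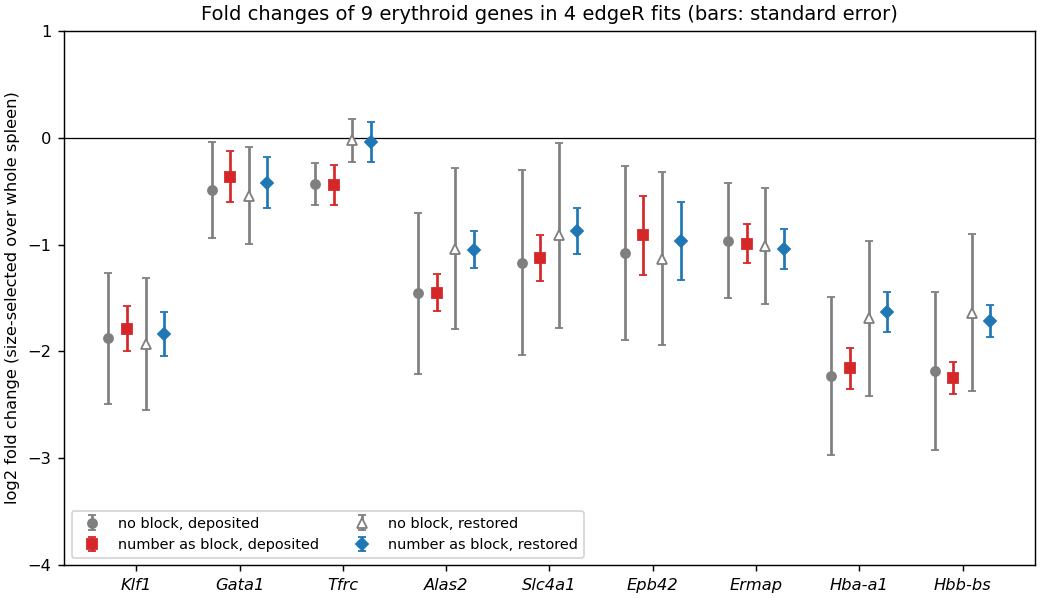
Log2 fold change, size-selected over whole spleen, of the 9 genes in 4 edgeR fits: without and with the number as a block, on deposited and on restored counts; bars are 1 standard error. The block shortens the bar of *Hbb-bs* from 0.74 to 0.15 and leaves the values nearly in place, and restoring brings *Tfrc* from -0.43 to -0.02.

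The fold change differed between some of the genes. Among the 36 pairs of genes, 20 differed in their per-number log2 difference by exact sign-flip permutation tests, with adjusted p from 0.0234 to 0.0422. That count was 12 without number 427, 435, 445 or 447 and 13 without 408 or 460. Each of the 20 had an unadjusted exact permutation p of at most 0.0234, as did 66.7% of all pairs of tested genes, so the members' count is not above that of the whole table. The smallest p that 8 numbers allow is 0.00781. Both globin genes fell further than *Gata1* in all 8 numbers, by 1.82 ± 0.60 for *Hba-a1* and 1.92 ± 0.65 for *Hbb-bs* (SD, n = 8). They also fell further than *Tfrc*, by 1.71 ± 0.88 and 1.81 ± 0.78, and further than *Alas2*, by 0.80 ± 0.33 and 0.90 ± 0.48, in 8 of 8 numbers each.

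*Klf1* fell further than *Ermap* by 0.73 ± 0.27 in 8 of 8 numbers, and further than *Tfrc* by 1.25 ± 0.61, also in 8 of 8. The difference between *Klf1* and the globin genes was not called: *Klf1* was 0.46 ± 0.90 above *Hba-a1* (exact permutation p = 0.18) and 0.56 ± 0.71 above *Hbb-bs* (exact permutation p = 0.0703), and on restored counts these turned to -0.12 and -0.02. The 2 globin genes differed by 0.10 ± 0.31 (exact permutation p = 0.531), and *Gata1* and *Tfrc* by 0.12 ± 0.61 (exact permutation p = 0.609), the latter turning to -0.34 on restored counts. Within 1 library, these comparisons hardly depend on how libraries are scaled, but they do depend on the constants. *Gata1* carries none and the globin genes carry a product of 0.585 to 0.756. The differences between *Gata1* and the globin genes would therefore be smaller on restored counts.

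**Figure D3:**
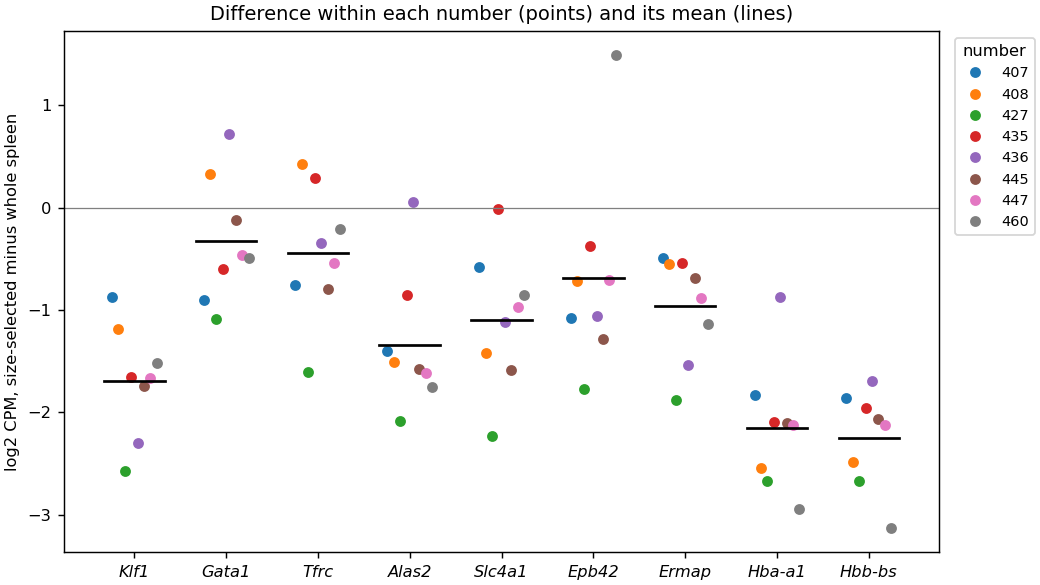
Log2 CPM of the size-selected sample minus that of whole spleen (vertical axis) for each of the 8 numbers (coloured points) and its mean (black line) per gene. Counts are as deposited. *Klf1*, *Slc4a1*, *Ermap*, *Hba-a1* and *Hbb-bs* have all 8 points below 0, with *Slc4a1* in number 435 at -0.02. The point at 1.49 is *Epb42* in number 460, which rests on 5 counts against 0.

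On counts as deposited, lower in all 8 numbers were *Klf1*, *Slc4a1*, *Ermap*, *Hba-a1* and *Hbb-bs*, 5 of 9, beside 22.2% of all tested genes. For *Slc4a1* this rests on a log2 difference of -0.02 in number 435, where its size-selected count carries a constant. Levels per kilobase of exon put the genes in an order in which only the step between the globin genes and the rest was wider than the ranges over samples. In whole spleen, median CPM per kilobase was 3823 for *Hbb-bs* and 1575 for *Hba-a1*, followed by 18.5 for *Alas2*, 10.6 for *Tfrc*, 7.36 for *Slc4a1*, 4.53 for *Klf1*, 2.24 for *Ermap*, 1.71 for *Gata1* and 0.81 for *Epb42*. In the size-selected samples, it was 792 for *Hbb-bs* and 328 for *Hba-a1*, then 9.48 for *Tfrc* and 6.12 for *Alas2*, which had changed places. *Gata1* (1.28) and *Ermap* (0.82) had changed places too. All neighbours in both orders had overlapping ranges, apart from *Hba-a1* and the gene after it.

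Spread between spleens was among the widest of all tested genes for 8 of the 9 genes, and nearer the middle for *Tfrc*. The SD of log2 CPM in whole spleen was 2.41 for *Slc4a1* and *Epb42*, 2.23 for *Alas2*, 1.89 for *Hba-a1*, 1.84 for *Hbb-bs*, 1.48 for *Klf1*, 1.26 for *Ermap* and 1.13 for *Gata1*. These SDs lie at the 95.3 to 99.9 percentile of all tested genes, whose median was 0.32. *Tfrc*, at 0.40, lay at the 62.2 percentile. The same spleens were rich or poor in most of the genes: 427, 435, 445 and 447 held the 4 highest whole spleen values of *Klf1*, *Gata1*, *Alas2*, *Slc4a1*, *Epb42*, *Ermap*, *Hba-a1* and *Hbb-bs*. Both sexes are among them.

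No difference in spread between fractions was detected. The SD in the size-selected samples was 2.35 for *Slc4a1*, 1.89 for *Epb42*, 1.88 for *Alas2*, 1.86 for *Hbb-bs*, 1.69 for *Hba-a1*, 1.30 for *Klf1*, 1.25 for *Ermap*, 0.87 for *Gata1* and 0.49 for *Tfrc*, beside a median of 0.34 over all tested genes. Exact permutation tests that exchange the deviations of a number between fractions gave p from 0.227 to 0.891 over the 9 genes, each 0.891 after adjustment.

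Whether a spleen rich in a transcript before size selection was also rich after it was asked gene by gene, over the 8 numbers and on log2 CPM. The relation held for 7 of the 8 genes in which it could be tested, after Benjamini-Hochberg adjustment over those 8. *Hbb-bs* had Pearson's r = 0.97 (exact permutation p = 0.000149, adjusted 0.000463) and Spearman's rho = 0.905 (exact permutation p = 0.00456). *Alas2* had r = 0.96 (exact permutation p = 9.92e-05, adjusted 0.000463) and rho = 0.976, and *Hba-a1* r = 0.94 (exact permutation p = 0.000174, adjusted 0.000463) and rho = 0.976. *Slc4a1* had r = 0.96 (exact permutation p = 0.00169, adjusted 0.00337) with rho = 0.786. *Klf1* and *Epb42* both had r = 0.93 (adjusted exact permutation p = 0.00377), with rho = 0.857 and 0.81.

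*Gata1* had r = 0.85 (exact permutation p = 0.0208, adjusted 0.0237) and rho = 0.738, whose adjusted exact permutation p = 0.0524 missed the threshold. Without number 435 its r was 0.81 with an adjusted exact permutation p = 0.056. After the 2 numbers farthest from the whole spleen median were left out, r was 0.94 for *Klf1*, 0.93 for *Gata1*, 0.94 for *Alas2*, 0.96 for *Slc4a1*, 0.87 for *Epb42*, 0.97 for *Hba-a1* and 0.96 for *Hbb-bs*. Leaving out 1 number did not keep every relation: the whole spleen values then fell into 2 clusters, with under 6 samples in each and so no r, for *Klf1* without 445 or 460, *Gata1* without 407, *Slc4a1* without 436 and *Epb42* without 427. For *Epb42* without 436 or 460, r was 0.87 over the 6 samples of the larger cluster and 0.09 without 2 more, so it rests on those samples, and *Alas2* without 460 had 0.94 and then 0.64. For *Ermap*, whose whole spleen values form 2 clusters of 4 with a gap of 0.544 of their whole range, no r is given. *Tfrc* had r = -0.06 (exact permutation p = 0.882) and rho = -0.19 (exact permutation p = 0.665). Its r was -0.76 without numbers 445 and 447, and 0.22 without 427 alone, so its value rests on single samples. Over all 14510 genes the median r was 0.21, and 0.889% of them (129) had r of at least 0.9, as *Klf1*, *Alas2*, *Slc4a1*, *Epb42*, *Hba-a1* and *Hbb-bs* did. Both samples of a number may share an animal, and each r also reflects how widely a gene ranges.

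**Figure D4:**
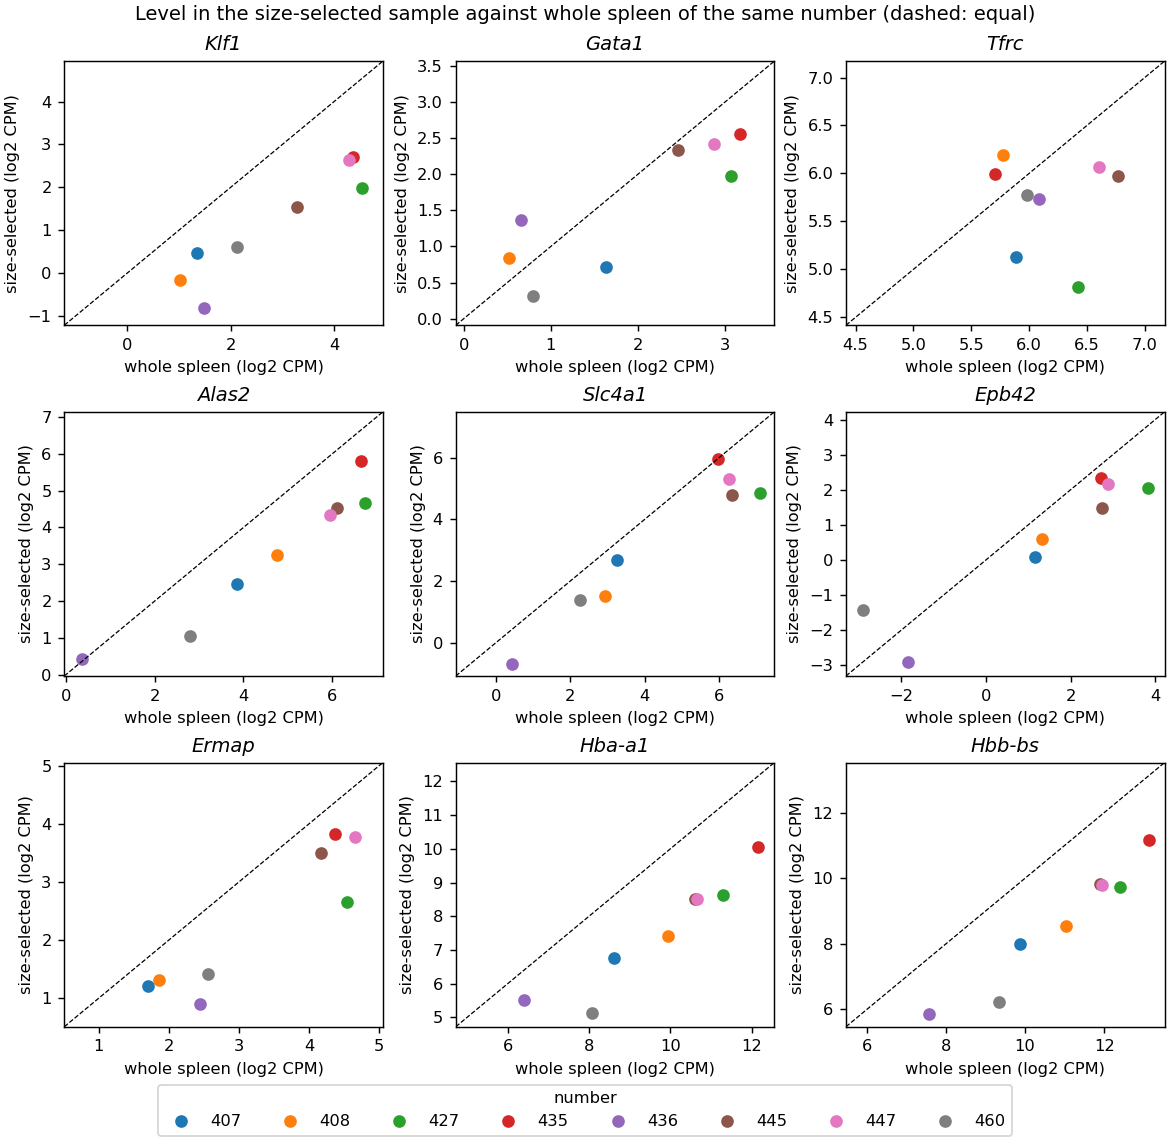
Log2 CPM in the size-selected sample (vertical axis) against whole spleen of the same number (horizontal axis) for each gene; points are the 8 numbers and the dashed line marks equal levels. Points of *Klf1*, *Alas2*, *Hba-a1* and *Hbb-bs* lie along lines (r = 0.93 to 0.97) and below the dashed line, except number 436 of *Alas2*, which is just above it, those of *Tfrc* follow no line (r = -0.06), and those of *Ermap* form 2 clusters.

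Within each fraction most of the genes were also correlated across spleens. In whole spleen, r could be taken for 28 of the 36 pairs, since *Ermap* forms clusters, and 20 pairs passed exact permutation tests after adjustment over the pairs. That count was 6 without number 436, 8 without 427, 11 to 13 without 407, 435, 445, 447 or 460, and 20 without 408. Fewer pairs could be tested in some of these cases. By the rule on clusters, *Slc4a1* had no r without 436, *Epb42* without 427, *Gata1* without 407 and *Klf1* without 445 or 460. The 20 pairs had r of at least 0.748, a value that 3.28% of all pairs of tested genes reached, clusters not being checked there. The 21 pairs without *Tfrc* in which r could be taken, called or not, had r from 0.67 to 1.00 (median 0.87) and rho from 0.69 to 1.00. *Hba-a1* and *Hbb-bs* ranked the spleens identically. The 7 pairs with *Tfrc* had r from 0.20 to 0.53, and 0 of them passed. In the size-selected samples, 27 of 36 pairs passed, but 14 did without number 435, 15 without 427 and 17 without 436. The 27 had r of at least 0.762, which 4.93% of all pairs of tested genes reached. There the 28 pairs without *Tfrc* had r from 0.69 to 1.00 (median 0.88), and the 8 pairs with *Tfrc* had r from -0.03 to 0.24. Those low values rest on few samples: without the 2 samples farthest from the median of the gene on the x axis, r was 0.69 for *Tfrc* with *Alas2*, 0.76 with *Epb42*, and from -0.13 to 0.76 over the 8 pairs. All genes of a sample share its library and depth.

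Outside the list, among the genes that tracked the mean of the 9 standardised levels most closely over the 8 whole spleen samples were *Rhd* (r = 0.996), which encodes the Rh blood group protein, *Tmcc2* (0.987) and *Tspo2* (0.976). Over the 8 size-selected samples they included *Ctse* (0.989), *Car2* (0.988), which encodes a carbonic anhydrase, *Trim10* (0.983) and *Hbb-bt* (0.981). They were picked for this likeness, so the r values are descriptions. Their own fold changes between fractions ran from -0.31 for *Tmcc2* to -1.79 for *Car2*. *Tspo2*, *Ctse*, *Car2* and *Hbb-bt* passed edgeR's test, and *Rhd* (adjusted p = 0.223), *Trim10* (0.299) and *Tmcc2* (0.675) did not. With the block all passed but *Tmcc2*, whose value turned to 0.40 (adjusted p = 0.345).

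No difference between the sexes was detected in the 9 genes. In whole spleen edgeR called 0 of 9, beside 0.194% of all genes tested in whole spleen, and 0 of 9 had an unadjusted p under 0.05, beside 16.1% of those genes. DESeq2 also called 0 of 9 after adjustment, beside 3.67% of all genes it gave an adjusted p, and only *Tfrc* had an unadjusted p under 0.05 there, beside 10.6% of genes. On the log2 scale, female minus male, *Tfrc* had 0.42 (SE 0.20, edgeR adjusted p = 0.327) and *Hba-a1* had -1.28 (SE 0.81, adjusted p = 0.448). In the size-selected samples edgeR and DESeq2 called 0 of 9 (beside 0.0397% of all genes tested with edgeR and 0.13% with DESeq2), with no unadjusted p under 0.05 (beside 4.18% of those genes with edgeR and 3.28% with DESeq2), and *Hba-a1* had -1.15 (SE 0.89) and *Alas2* -1.11 (SE 0.96), both with an edgeR adjusted p = 0.999. For the interaction of sex and fraction, edgeR called 0 of 15760 genes (4.72% had an unadjusted p under 0.05), and the unadjusted p of the 9 ran from 0.582 to 0.971. DESeq2 called 0 of the 9, beside 0.0106% of all genes, with 3.6% at an unadjusted p under 0.05. Within a fraction, standard errors ran from 0.20 (*Tfrc* in whole spleen) to 1.16 (*Slc4a1* in the size-selected samples), so only sex differences well above these sizes were detectable.

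The red cell lists beyond the 9 genes gave a mixed picture. Of 80 further genes, 72 were tested, and 21 were lower and 14 higher without the block, against 31 and 17 with it, around a median of -0.41 without it. Over all tested genes, 30.4% were lower and 37.5% higher without the block, and 31.3% and 38.1% with it. Without the block, 21 of 72 lower is close to the share in the whole table and 14 of 72 higher is below it. With the block, 31 of 72 lower is above the share and 17 of 72 higher is below it. Among 16 late red cell genes, 14 were tested. Without the block 6 were lower and 1 was higher, and with it 8 and 1, beside those shares. On restored counts 5 were lower and 1 higher without the block, and 10 and 1 with it. *Car2* (-1.79) and *Car1* (-1.74), the carbonic anhydrases, fell most, *Prdx2*, a peroxide-clearing enzyme, fell by 0.61, and *Ube2l6* rose by 0.81. *Alox15* did not pass the filter, and *Ahsp* was not analysed here. Of 9 genes around the erythropoietin receptor, 8 were tested, of which 2 were lower and 3 higher, beside the same 30.4% and 37.5%: *Stat5a* (-0.93) and *Pim1* (-0.53) fell, and *Cish* (1.17), a feedback inhibitor, and *Kit* (0.51), the stem cell factor receptor, rose. *Erfe*, the hormone by which erythroblasts signal iron demand, did not pass the filter. T cell markers were lower for 5 of 6 genes, B cell markers for 5 of 6 and neutrophil markers for 6 of 7, beside 30.4% of all tested genes.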

How the data were processed

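Estimated counts per gene and sample were deposited by the authors, and the submitters' processing notes name Trim Galore, STAR, RSEM, DESeq and mm10 without roles. The annotation is not given in the sources used here. The authors' table of comparisons was not used. All 16 columns were used.

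The counts were rounded to whole numbers and tested with edgeR 4.0.16 in R 4.3.3 after filterByExpr (minimum count 10) and TMM scaling (quasi-likelihood F test, Benjamini-Hochberg adjustment over all genes tested, calls under 0.05). CPM uses TMM-scaled totals, and log2 CPM a prior count of 2. The constants in the size-selected columns were found from the values. Gene lengths came from GENCODE M21 (GRCm38), which held 54809 of the 54838 identifiers, 54256 of them under the same symbol. Depth was 12153770 to 19944440 counts per sample, and a count of 0 allows up to 3 counts, which covers counting error only.

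The main fit has no block. Samples of 1 number deviated together in all 8 pairs (r from 0.12 to 0.38, mean 0.21, over 14510 genes, against -0.03 for different numbers), so blocked values stand beside it. Pairing was decided before calls were compared. Where the largest gap of a gene's whole spleen values exceeds 0.5 of their range, the samples count as clusters.

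The 9 genes and all lists were chosen with earlier results of these data known. Named genes are the 9, from each red cell list the called genes with the largest and smallest fold changes (at most 2 each way) and those not past the filter, and the 5 most alike per fraction. Some genes that this rule names are not reported here. *Itga2b* and *Pf4* define megakaryocytes and were named for that. Alternatives were RLE scaling, library totals, totals without globin genes, limma-voom (limma 3.58.1), DESeq2 1.42.0, other filters, the block, sex as a covariate, restored counts, a prior count of 0.5 and leaving out each number. Summed globin pairs and leaving out numbers in the blocked fit were chosen after seeing the data. Scripts were tested on simulated data.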

Additional observations from a re-analysis of the deposited data

Results flagged for a closer look

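*Epb42* in number 460 had a size-selected minus whole spleen difference of 1.49 on the log2 CPM scale, far from the other 7 numbers, which lay between -1.77 and -0.38. The gap to the nearest of them took 0.572 of the whole range, above the limit for 8 samples. The value rests on 5 counts in the size-selected sample and 0 in whole spleen. Of 27 groups of 8 values screened, 1 stood out in this way, and chance flags about 1 in 20 groups, or 1.35 of 27.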

How the results depend on the processing

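With the number as a replicate block, the genes called lower went from 3 to 7, also 7 on restored counts and 7 with the globin pairs summed. Leaving out each number gave 3 to 8 genes called lower, the upper values from the blocked fit (6 to 8, 8 without 435). The block left the sign of all 9 fold changes as it was. Pairs of genes that differed in their fall numbered 12 to 23 with a number left out, beside 20. Fewer numbers raise the smallest p of that test, so these counts are not directly comparable. Correlated pairs numbered 6 to 20 in whole spleen, fewest without 436, beside 20. In the size-selected samples they numbered 14 to 25, fewest without 435, beside 27. In whole spleen, leaving out a number also split more genes into clusters, so fewer pairs could be tested. The cause was not tested further. On restored counts 6 values changed sign: r of *Tfrc* between fractions to 0.038, and the differences *Klf1* minus *Hba-a1* to -0.12, *Klf1* minus *Hbb-bs* to -0.021, *Gata1* minus *Tfrc* to -0.34, *Alas2* minus *Ermap* to 0.062 and *Slc4a1* minus *Ermap* to 0.16. None of these 6 was called before or after, and restoring raises, by construction, only the counts of genes with constants. With a number left out, r of *Tfrc* ran from -0.26 to 0.22, and the differences of *Gata1* and *Tfrc* from -0.021 to 0.26, of *Epb42* and *Ermap* from -0.061 to 0.40, and of *Hba-a1* and *Hbb-bs* from -0.0030 to 0.13. *Klf1* and *Hba-a1* were called in all 13 alternatives, *Hbb-bs* in 12. Library totals moved the median of all genes by 0.13, and DESeq2, which tests more genes, by 0.11; *Klf1* (-1.76) and both globin genes (-2.08 and -2.04) were still called with library totals. Low counts limit *Epb42*, *Gata1* and *Klf1*.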
